A study of Mus musculus with 55 samples.

Results

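The Cyp3a family of liver cytochrome P450 enzymes comprised 9 genes in the expression tables, and 7 of them are described here, Cyp3a11, Cyp3a13, Cyp3a16, Cyp3a41a, Cyp3a41b, Cyp3a44 and Cyp3a59. They were taken by their symbols and make up 7 of the 37620 genes quantified, and the remaining 2 family genes, Cyp3a25 and Cyp3a57, are mentioned only where values are shared. Poly(A) RNA was sequenced from the livers of 55 untreated male mice of 29 lines of the Collaborative Cross (CC), a panel of recombinant inbred lines derived from a common set of founder strains. Mice of 1 line are near-identical genetically and are the replicates here, with 8 lines of 1 mouse, 16 of 2 mice and 5 of 3 mice. The mice carried no transgene and received no agent, were between 8 and 11.9 weeks old, and differed between groups by line. Because line mates nearly always shared their age, line and age cannot be told apart in full.

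Cyp3a enzymes are membrane-bound monooxygenases of the hepatocyte that oxidise steroids, bile acids and a large share of clinical drugs, with electrons supplied by the reductase Por. Their transcription is induced through the pregnane X receptor, PXR, encoded by Nr1i2, and through the related receptor CAR, encoded by Nr1i3, and both bind DNA beside the retinoid X receptor Rxra. In mouse liver several family members are known to follow the sex-specific pattern of growth hormone secretion, with Cyp3a41 and Cyp3a44 classed as female-predominant in adults and Cyp3a16 as a fetal and perinatal form, whereas Cyp3a11 and Cyp3a13 are expressed in both sexes.

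On the genome build of the files (mm9), 6 of the 7 members lay in a cluster on chromosome 5 that spanned 819 kb, from 146106148 to 146924861, together with Cyp3a25 and Cyp3a57. In order of position the members were Cyp3a16 (146197178 to 146230592), Cyp3a41b (146319544 to 146345599), Cyp3a41a (146505635 to 146531712), Cyp3a44 (146585559 to 146617450), Cyp3a11 (146666002 to 146691540) and Cyp3a59 (146890834 to 146924861). Cyp3a59 is on the plus strand and the other 5 of these members are on the minus strand. Cyp3a13 stood alone on the minus strand of chromosome 5 (138334160 to 138362847), 7.74 Mb before the cluster. Nr1i2 is on chromosome 16 (38248409 to 38294910). All members are annotated as protein coding.

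The members differ in how well short reads separate them. Of the 50-base windows of the Cyp3a41a transcript, 98.6% occurred also in the transcript of another family gene and 93.65% in that of Cyp3a41b, and of the Cyp3a41b windows 93.5% occurred in that of Cyp3a41a. The split of fragments between these paralogs is therefore uncertain. The shared part was 28.3% for Cyp3a59, mostly with Cyp3a25, and 18.2% for Cyp3a44, with 11.5% of its windows found in Cyp3a41a. It was 14.7% for Cyp3a11 and 10.5% for Cyp3a16, and no window of Cyp3a13 was shared. Estimated counts of Cyp3a13 were whole numbers (within 0.005) in all 55 mice, whereas those of Cyp3a11, Cyp3a41a and Cyp3a59 were not whole in any mouse.

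The promoters are shown because they differ little between the members of low expression, and the 150 bases before the RefSeq start site (build GRCm38.p6, chromosome 5, written 5′ to 3′ on the strand of the gene) are given for the 4 members with the lowest median FPKM and for Cyp3a11. Capitals mark the hexamers AGTTCA and AGGTCA, to which nuclear receptors bind in pairs, the letters TATAAA, and TTCNNNGAA, the form bound by Stat5, searched on both strands.
Cyp3a11 (chr5:145879855-145880004, minus strand): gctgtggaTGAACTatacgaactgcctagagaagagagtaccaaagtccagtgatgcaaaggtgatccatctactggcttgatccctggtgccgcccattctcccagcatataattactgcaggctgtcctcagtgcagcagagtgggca
Cyp3a16 (chr5:145469724-145469873, minus strand): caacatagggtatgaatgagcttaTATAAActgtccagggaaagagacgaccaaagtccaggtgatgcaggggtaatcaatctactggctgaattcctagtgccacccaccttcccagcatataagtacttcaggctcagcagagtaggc
Cyp3a41a (chr5:145720137-145720286, minus strand): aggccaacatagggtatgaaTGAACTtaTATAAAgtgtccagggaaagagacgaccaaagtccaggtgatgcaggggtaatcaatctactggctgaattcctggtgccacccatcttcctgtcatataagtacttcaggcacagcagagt
Cyp3a41b (chr5:145584731-145584880, minus strand): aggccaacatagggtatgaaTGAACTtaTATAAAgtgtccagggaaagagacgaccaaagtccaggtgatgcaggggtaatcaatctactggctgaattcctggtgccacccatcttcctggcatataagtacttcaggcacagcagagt
Cyp3a44 (chr5:145805875-145806024, minus strand): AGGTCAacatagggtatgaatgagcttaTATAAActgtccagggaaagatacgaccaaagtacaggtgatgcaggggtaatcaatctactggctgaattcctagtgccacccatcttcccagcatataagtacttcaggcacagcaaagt

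Over the 250 bases before the start, Cyp3a41a and Cyp3a41b were 99.6% identical, with 249 of 250 aligned bases the same. Cyp3a44 was 94.4% identical to Cyp3a41a, and Cyp3a16 was 92.9% identical to Cyp3a44. Cyp3a11 reached at most 76.6% identity, with Cyp3a16, and Cyp3a13 and Cyp3a59 at most 55.8% with any other member. Within these 250 bases an AGTTCA hexamer was found 142 bases before the start of Cyp3a11 and 130 bases before those of Cyp3a41a and Cyp3a41b, and 11.8% of all 32851 RefSeq promoter windows of this length held one. An AGGTCA hexamer was found 162 bases before the start of Cyp3a11, 150 before that of Cyp3a44, and 177 and 156 before that of Cyp3a59, against 14.02% of all promoters. TATAAA occurred 122 bases before the start of Cyp3a41a, Cyp3a41b and Cyp3a44, 126 before that of Cyp3a16 and 234 before that of Cyp3a11, against 12.4% of all promoters. No direct repeat of these hexamers 3 bases apart, everted repeat 6 bases apart or TTCNNNGAA was found in the windows of the members. Of all promoters 0.0122%, 0.00913% and 7.02% held these, so their absence says little about the members. Cyp3a13 held none of the motifs searched.

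Several libraries stood apart in the values of these genes and were examined before the results. The total of estimated fragments was between 20.5 and 33.95 M per mouse, and across the 29 line means its correlation with the members was between -0.28 and 0.16. The hepatocyte markers Alb, Apoa1, Ttr, Serpina1a, Tat and Hnf4a were present in every mouse, with Alb at a median of 31174 FPKM. Of 6 enterocyte markers only Fabp2, which liver also expresses, was above 0.5 FPKM in the median mouse, and the median of Lct, Sis, Alpi and Cdx2 was 0. All 55 mice expressed the Y-linked genes Ddx3y, Eif2s3y, Kdm5d and Uty. The X-inactivation RNA Xist was at or below 0.12 FPKM in all mice but IL-785 replicate 3, which had 39.5 FPKM and was also the lightest mouse, at 12.8 g. IL-2680 replicate 1 differed widely from its line mate in Cyp3a41a and Cyp3a44, without Xist. The mice of IL-1052 and IL-2750 did not group by their labels in Cyp3a16, Cyp3a44 and Cyp3a59, whereas they did in Cyp3a11. Cyp3a11 was at 757 and 745 FPKM in IL-1052 and at 1293, 998 and 1227 FPKM in IL-2750. IL-1052 replicate 1 had Cyp3a16 at 0, Cyp3a44 at 0.02 and Cyp3a59 at 8.64 FPKM, near IL-2750 replicates 1 and 3 with Cyp3a16 at 0, Cyp3a44 at 0.02 and 0.12 and Cyp3a59 at 9.69 and 8.00 FPKM. IL-1052 replicate 2 had 7.93, 6.24 and 0.17 FPKM for these genes, near IL-2750 replicate 2 with 12.6, 5.34 and 0.27 FPKM. Intraclass correlations and the main relations among the members are given with and without these mice. Correlations with the gene lists and with the genes most like each member are given with all mice included.

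**Figure D1:**
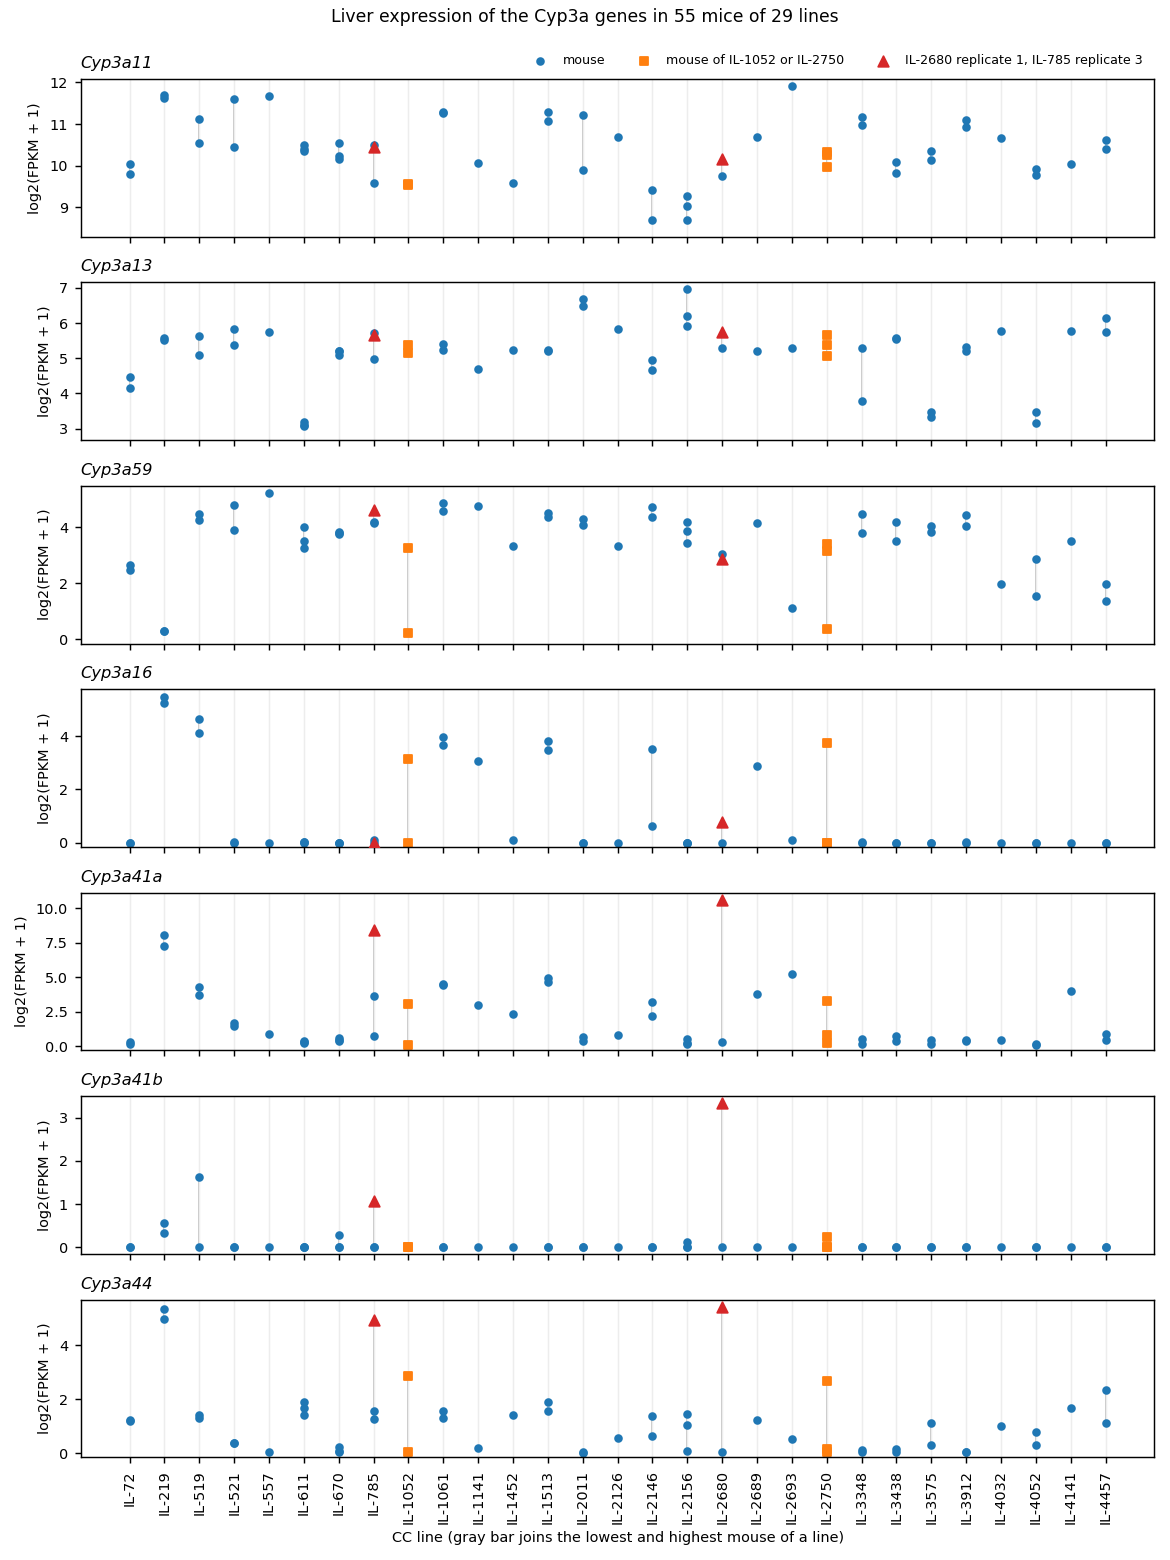
Expression of the 7 members in every mouse, as log2(FPKM + 1) on the y axis, with the 29 CC lines on the x axis. Each point is a mouse, orange squares are the mice of IL-1052 and IL-2750, and red triangles are IL-2680 replicate 1 (Cyp3a41a at 1549 FPKM) and IL-785 replicate 3 (334 FPKM). Cyp3a11 and Cyp3a13 were present in every mouse, whereas Cyp3a16 was above 0.5 FPKM in only 15 mice and Cyp3a41b in only 3.

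Cyp3a11, the main inducible hepatic Cyp3a of the mouse, was the most expressed member, with FPKM (fragments scaled for transcript length and for the depth of the mouse, so that genes can be compared) of 412 in the lowest mouse, 1309 in the median mouse and 3889 in the highest. It made up between 30.5% and 88.1% of the summed FPKM of the 9 family genes in a mouse, with a median of 72.2%. Its line means ran from 515 ± 99.2 FPKM (SD, n = 3) in IL-2156, whose mice had 611, 522 and 413 FPKM, to 3249 ± 131 (SD, n = 2) in IL-219, with 3156 and 3341 FPKM, and the single mice of IL-557 and IL-2693 had 3278 and 3889 FPKM. The value of IL-2693 was 7.55 times the mean of IL-2156. IL-2146 was nearly as low as IL-2156, at 545 ± 187 FPKM (SD, n = 2), and held the lowest mouse, at 412 FPKM, beside a line mate at 677 FPKM. The mice of IL-2156 differed also in cell type markers, with summed hepatocyte markers of 33181, 32327 and 17572 FPKM against a median of 49144 over all mice, and summed cholangiocyte markers (Krt7, Krt19, Sox9, Epcam, Spp1) of 125, 208 and 130 FPKM against a median of 27.5, of which Spp1 alone made up 206 FPKM in replicate 2. Summed Kupffer cell markers were 46.9, 214 and 97.9 FPKM against a median of 39.6, and erythroid markers 1443, 4528 and 695 FPKM against a median of 1363. The part of these markers in the low Cyp3a11 was not tested, and fewer cells of a type and less RNA per cell cannot be told apart in whole tissue. Line mates could also differ widely, as in IL-521 with 1392 and 3126 FPKM and IL-2011 with 953 and 2386 FPKM.

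Cyp3a13, which is expressed in gut as well as liver, had 7.44, 38.0 and 124 FPKM in the lowest, the median and the highest mouse. It showed 3 lines with means far under those of the others. IL-611 had 8.07, 7.44 and 7.61 FPKM, IL-4052 had 7.95 and 10.1 FPKM, and IL-3575 had 10.2 and 9.14 FPKM. The next line mean was 19.0 ± 3.10 FPKM (SD, n = 2) in IL-72. Line mates differed widely in IL-3348, where replicate 1 had 12.9 FPKM, near the 3 low lines, and replicate 2 had 38.0 FPKM. The highest lines were IL-2011, with 101 and 88.2 FPKM, and IL-2156, with 59.7, 72.3 and 124 FPKM. The line mean of IL-2011 was 12.3 times that of IL-611. IL-2156, with the lowest mean of Cyp3a11, was thus among the highest for Cyp3a13.

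Cyp3a59, the neighbour of Cyp3a25 with opposite orientation, had 0.17, 13.1 and 36.8 FPKM in the lowest, the median and the highest mouse. It was near 0 in both mice of IL-219, at 0.22 and 0.23 FPKM, in IL-1052 replicate 2 and in IL-2750 replicate 2, and the single mouse of IL-2693 had 1.19 FPKM. In the other direction the single mouse of IL-557 had 36.8 FPKM and IL-1061 had 28.2 and 22.9 FPKM. IL-219 thus had the lowest mean of Cyp3a59 and, among the lines with at least 2 mice, the highest mean of Cyp3a11.

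Cyp3a16 was absent from the estimates of 32 mice, where a count of 0 allows up to 3 fragments or about 0.066 FPKM, and was above 0.5 FPKM in 15 mice. The signal was mostly shared by line mates. Both mice were above 10 FPKM in IL-219 (37.3 and 44.0), IL-519 (24.4 and 16.5), IL-1061 (14.6 and 11.8) and IL-1513 (13.2 and 10.3). The single mice of IL-1141 and IL-2689 had 7.48 and 6.29 FPKM. Within IL-2146 the values were 0.54 and 10.4 FPKM, and the mouse of IL-1052 and the mouse of IL-2750 named above were the remaining ones, beside IL-2680 replicate 1 with 0.72 FPKM. The gene was listed at 0.36 FPKM or less as a mean in each of the other 20 lines.

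Cyp3a41a had the widest range, with 0.07, 0.64 and 1549 FPKM in the lowest, the median and the highest mouse, and 29 mice reached 0.5 FPKM. IL-219 had 259 and 149 FPKM, IL-2693 had 36.2, IL-1513 had 23.5 and 29.4, IL-1061 had 21.7 and 20.8 and IL-519 had 18.7 and 11.8 FPKM. In these lines the line mates differed by less than a factor of 2. They differed far more in IL-2680, IL-785, IL-1052, with 0.07 and 7.41 FPKM, and IL-2750, with 0.15, 8.83 and 0.75 FPKM. IL-2680 had 1549 FPKM in replicate 1 and 0.22 in replicate 2, and IL-785 had 0.67, 11.1 and 334 FPKM in replicates 1, 2 and 3. In IL-2680 replicate 1 Cyp3a41a made up 51.9% of the summed FPKM of the family, above Cyp3a11 at 1133 FPKM, against 0.020% in its line mate. Its estimated counts there were 87057 for Cyp3a41a and 509 for Cyp3a41b.

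Cyp3a41b, the near-copy of Cyp3a41a, was at 0 in 46 mice and above 0.5 FPKM in 3 mice, IL-2680 replicate 1 with 9.04 FPKM, IL-519 replicate 2 with 2.07 and IL-785 replicate 3 with 1.10. The first and the last of these were the mice with the highest Cyp3a41a. Cyp3a44 had 0, 1.08 and 41.9 FPKM in the lowest, the median and the highest mouse. Its highest values were in IL-2680 replicate 1 (41.9 FPKM, against 0.02 in replicate 2), in IL-219 (39.9 and 30.8) and in IL-785 replicate 3 (29.4, against 1.38 and 1.97 in its line mates). IL-1052 replicate 2 and IL-2750 replicate 2 followed with 6.24 and 5.34 FPKM.

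All 7 members passed the test for a difference among the 21 lines with at least 2 mice (edgeR's quasi-likelihood F test on 47 mice, Benjamini-Hochberg adjusted p under 0.05 over 15285 genes), against 90.6% of all genes tested, so the count says little about these genes. The adjusted p was 8.11e-10 for Cyp3a13, 1.38e-08 for Cyp3a16, 1.34e-07 for Cyp3a41a, 9.79e-07 for Cyp3a11, 1.80e-05 for Cyp3a44, 0.00109 for Cyp3a59 and 0.00303 for Cyp3a41b. With IL-1052 and IL-2750 left out the adjusted p of Cyp3a59 was 8.68e-10, and all 7 members were still called. Cyp3a41b was detected in too few mice to rest on this value, and DESeq2 did not call it (adjusted p = 1.00) and gave no value for Cyp3a16. When the 21 lines were placed in the order of their means, most neighbours overlapped in their mice. Of the 20 neighbouring pairs 17 overlapped for Cyp3a11 and for Cyp3a13, 18 for Cyp3a16, Cyp3a44 and Cyp3a59, 16 for Cyp3a41a and all 20 for Cyp3a41b. For Cyp3a16 the neighbours that did not overlap were IL-1061 under IL-519 and IL-519 under IL-219. With so few mice per line, neighbours can also lie apart by chance, so the order of neighbouring lines was not resolved. Lines farther apart could separate fully, as for Cyp3a13 IL-611, at most 8.07 FPKM, and IL-670, at least 33.0 FPKM. The overlaps were not counted over all genes, so they do not set the members apart.

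How alike line mates were was measured by the intraclass correlation of van der Waerden scores (normal scores of the ranks of rounded FPKM), where 1 means that line mates are identical and 0 that they are no more alike than other mice. It was 0.80 for Cyp3a11, 0.79 for Cyp3a13, 0.78 for Cyp3a16 and 0.78 for Cyp3a59. For Cyp3a11, Cyp3a13 and Cyp3a59 the one-sided permutation p was 1e-05, the smallest value possible with 100000 shuffles of the lines, and for Cyp3a16 it was 4e-05. The median over 5949 expression traits was 0.59, with quartiles of 0.49 and 0.69, and these 4 members exceeded between 90.5% and 94.2% of the traits. Cyp3a41a was lower at 0.50 (permutation p = 0.00687), Cyp3a44 reached 0.31 (permutation p = 0.0542) and Cyp3a41b 0.12 (permutation p = 0.311). These p-values were not adjusted over the members, and Cyp3a41a and Cyp3a41b had fewer levels after rounding (10 and 5) than the 12 required of the traits.

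The low share of Cyp3a41a rested on the mice that stood apart. Without IL-2680 replicate 1 and IL-785 replicate 3 it was 0.86 (permutation p = 1e-05, the smallest possible). On unranked FPKM, where IL-2680 replicate 1 dominates, it was -0.07. These 2 mice were picked after their values of Cyp3a41a and Cyp3a44 were seen. A rise in these genes was thus bound to follow, and the permutation p without the mice does not allow for the choice. For Cyp3a44 the value rose to 0.45 without these 2 mice (permutation p = 0.0131) and to 0.53 when IL-1052 and IL-2750 were left out (permutation p = 0.00367). Leaving those 2 lines out raised Cyp3a16 to 0.94. The mice of those 2 lines differed widely in Cyp3a16 and Cyp3a44, as given above, so the rises without them only restate that difference. Cyp3a11, Cyp3a13 and Cyp3a59 stayed between 0.75 and 0.86 when any 1 mouse was left out.

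**Figure D2:**
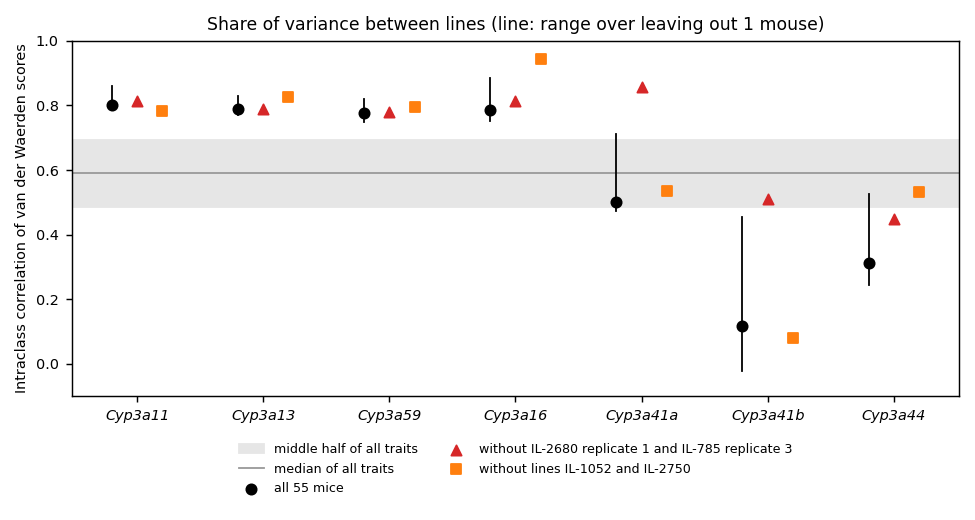
Intraclass correlation of van der Waerden scores of FPKM (y axis) for each member (x axis) over all 55 mice of 29 lines (black, with the range over leaving out 1 mouse), without IL-2680 replicate 1 and IL-785 replicate 3 (red) and without IL-1052 and IL-2750 (orange). The gray band is the interquartile range of 5949 traits, from 0.49 to 0.69. Cyp3a41a moved from 0.50 to 0.86 without the 2 mice, which were picked after their Cyp3a41a was seen.

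IL-2680 replicate 1 and IL-785 replicate 3 were compared with their line mates over lists of genes with known sex bias in liver, since Cyp3a41a and Cyp3a44 are female-predominant. In IL-2680 replicate 1, 6 of 10 female-biased genes were higher by more than 1 on the log2(FPKM + 1) scale and none was lower, against 1.78% of 11284 genes that were higher by as much. A1bg, a secreted plasma protein, had 28.4 FPKM against 0.08 in the line mate, the cytochrome P450 Cyp2b9 had 68.7 against 0.12, and the sulfotransferase Sult3a1 had 28.2 against 0. Of 11 male-biased genes 10 were lower by more than 1 and none was higher, against 1.23% of all genes. The bile acid enzyme Cyp7b1 had 75.6 FPKM against 554, the pheromone carrier Mup20 had 194 against 2788, and the fatty acid elongase Elovl3 had 37.3 against 205. Only the transporter Slco1a1, with 188 against 175, did not differ in this way.

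In IL-785 replicate 3, 4 of the 10 female-biased genes were higher by more than 1 and none was lower, against 0.727% of all genes. Cyp2b9 had 9.23 FPKM against 0.08 and 2.98 in the line mates, and the transcription factor Cux2 had 2.93 against 0.16 and 0.06. Of the 11 male-biased genes 5 were lower and none was higher, against 1.28% of all genes. Elovl3 had 15.6 FPKM against 136 and 57.7, and Cyp7b1 had 86.9 against 393 and 193. A1bg did not differ, with 0.04 FPKM against 0.02 and 0.06. In both mice the repressor Bcl6 was lower, at 1.55 FPKM against 7.91 in IL-2680 and 2.41 against 10.5 and 19.99 in IL-785. Among the feedback inhibitors of growth hormone signalling, Cish had 6.16 FPKM against 0.71 in IL-2680 and 1.82 against 0.65 and 0.53 in IL-785, and Socs2 had 9.44 against 8.57 in IL-2680 and 14.3 against 1.07 and 4.65 in IL-785. Of the 9 growth hormone genes 1 was higher and 1 lower by more than 1 in each mouse, beside the shares of all genes given above. Ghr, Jak2, Stat5a, Stat5b, Igf1 and Igfals differed by at most 0.56 on the log2 scale in both. Among the members, Cyp3a41a, Cyp3a41b and Cyp3a44 were higher by more than 1 in both mice, while Cyp3a11, Cyp3a13 and Cyp3a59 differed by at most 0.47. The mice were picked with their Cyp3a41a and Cyp3a44 known, and Cyp3a41b shares most of its windows with Cyp3a41a. The higher values of these members thus restate the choice of mice. Each comparison is of 1 mouse with 1 or 2 line mates, without a test, and the part of Xist expression, weight or cell types in it was not tested. Summed cell type markers of these mice moved in both directions. In IL-2680 replicate 1 Kupffer cell markers were 104 FPKM against a median of 39.6 over all mice, endothelial markers 19.7 against 14.6, hepatocyte markers 64021 against 49144, cholangiocyte markers 19.8 against 27.5, stellate cell markers 10.3 against 11.1 and erythroid markers 503 against 1363. In IL-785 replicate 3 these were 36.6, 13.7, 53932, 15.7, 9.50 and 2176 FPKM in the same order.

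**Figure D3:**
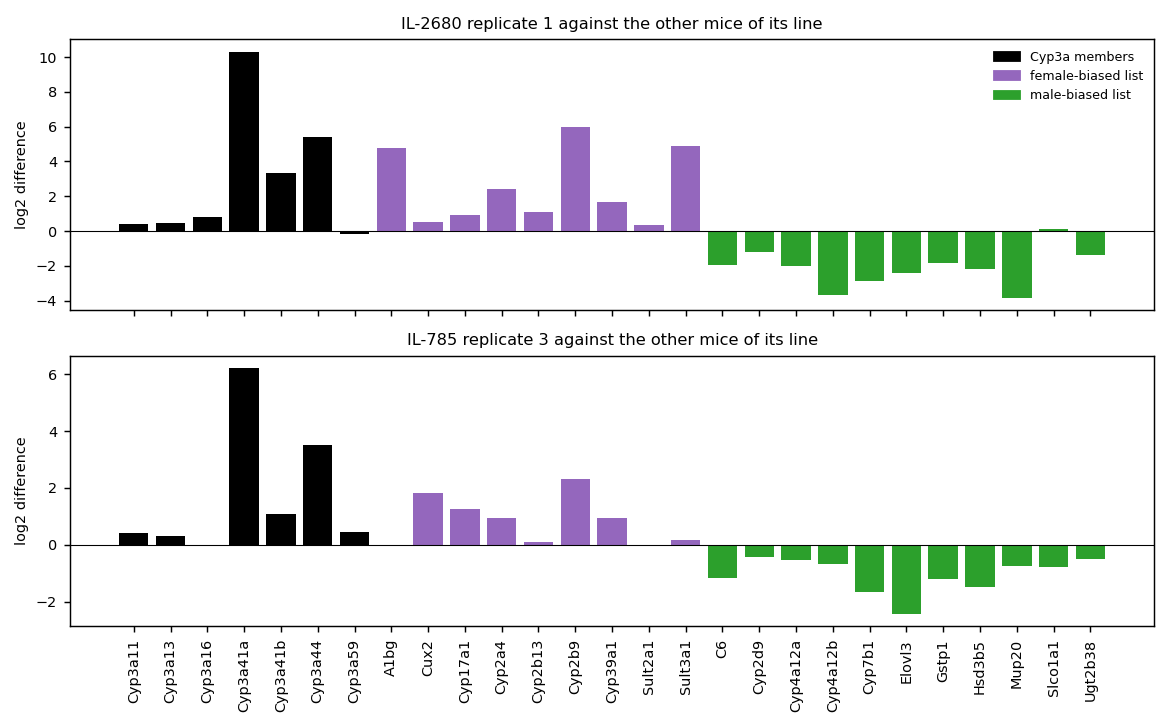
Difference of log2(FPKM + 1) (y axis) between IL-2680 replicate 1 (top) or IL-785 replicate 3 (bottom) and the mean of the other mice of the same line, for the 7 members (black), 9 of the 10 female-biased genes (purple) and 11 male-biased genes (green) on the x axis. Cyp3a41a stood highest in both mice, at 10.31 and 6.22, and bars of the male-biased genes pointed down except Slco1a1 in the upper panel. The mice were picked with their Cyp3a41a and Cyp3a44 known.

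Correlations across lines asked whether the members vary together and with their receptor, with the mean log2(FPKM + 1) of each of the 29 lines as the unit. Cyp3a16 and Cyp3a41b were at or near 0 in most lines, so that lines fall into separate groups, and no pooled correlation is given for them. Among the other 5 members 10 pairs were computed. Cyp3a41a and Cyp3a44 were positively related, with Pearson's r of 0.70 (two-sided permutation p = 4e-05) and Spearman's rho of 0.51 (permutation p = 0.00503). In limma regressions over all 11283 genes with a highest FPKM of at least 2, this pair had an adjusted p of 0.0321 with Cyp3a44 as the predictor, against 0.0266% of genes called, and of 0.103 with Cyp3a41a as the predictor, against 0% called in either direction. It was the only pair to pass. Of the windows of the Cyp3a44 transcript, 11.5% occurred also in that of Cyp3a41a, the family gene closest to it by this measure. The split of fragments between these genes is thus partly uncertain, and its part in their relation was not tested. The relation leaned on 2 lines, since r was 0.48 without IL-219 and IL-2680, the lines farthest from the median of Cyp3a41a. Without IL-2680 replicate 1 and IL-785 replicate 3 r was 0.66, with the adjusted p at 0.235 in the direction that had passed, and when IL-1052 and IL-2750 were left out r was 0.71 with an adjusted p of 0.0539 (limma).

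Among the remaining pairs, Cyp3a44 and Cyp3a59 had r of -0.48 (permutation p = 0.00918) and rho of -0.30 (permutation p = 0.109), with an adjusted p of 0.661 with Cyp3a44 as the predictor. Without IL-219 and IL-2680 r was -0.17, so that this relation rested on those lines. The other 8 pairs had r between -0.17 and 0.33. Cyp3a11 and Cyp3a41a had the highest of these, 0.33 (permutation p = 0.0792), and Cyp3a11 and Cyp3a13, the members found in every mouse, had 0.12 (permutation p = 0.521). With Cyp3a13 or Cyp3a59 as the predictor 0% of genes were called.

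Within lines, as deviations of the 47 mice from their line means, Cyp3a41a and Cyp3a44 had r of 0.93 (limma, adjusted p = 8.96e-10). This came from few mice, and the limit from the shared windows of these genes applies here too. Without IL-1052 and IL-2750 and without IL-2680 replicate 1 and IL-785 replicate 3 together r was 0.33 in the 39 remaining mice (limma, adjusted p = 0.555), and without either set alone it was 0.94 and 0.79. Cyp3a44 and Cyp3a59 had r of -0.42 within lines, -0.79 without IL-2680 replicate 1 and IL-785 replicate 3 (limma, adjusted p = 6.56e-05 with Cyp3a44 as the predictor), 0.04 without IL-1052 and IL-2750 and -0.09 without both sets.

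**Figure D4:**
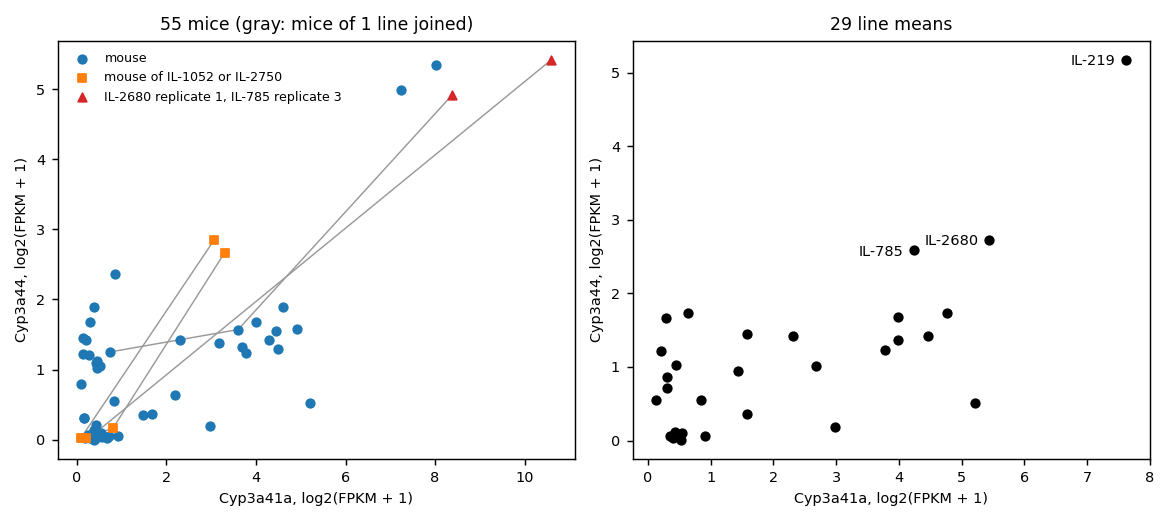
Cyp3a41a (x axis) against Cyp3a44 (y axis), both as log2(FPKM + 1), in 55 mice (left, with the mice of IL-2680, IL-785, IL-1052 and IL-2750 joined by lines) and in 29 line means (right, r = 0.70). IL-219 is at the top right among lines, and in both IL-2680 and IL-785 the mouse that is high in Cyp3a41a is high in Cyp3a44. Of the windows of the Cyp3a44 transcript 11.5% are shared with Cyp3a41a.

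Nr1i2 itself had 7.42, 16.0 and 30.6 FPKM in the lowest, the median and the highest mouse, and no neighbouring lines in its order were separated. It nevertheless differed among the 21 lines with at least 2 mice (edgeR's quasi-likelihood F test, adjusted p = 0.000434), as did 90.6% of all genes tested. Over all 29 lines its highest line mean, in IL-2126, was 3.60 times its lowest, in IL-4457. None of the 5 members was called as related to Nr1i2 in limma, although 2.56% of the 11283 genes were called with a positive and 0.0443% with a negative relation, and none had a permutation p under 0.05. The number of genes called depended on the scaling, with 289 positive and 5 negative on FPKM, 1391 and 15 on TPM and 17 and 12 on log2 CPM, and no member was called on any of these scales. Pearson's r was 0.04 for Cyp3a11 (permutation p = 0.819), -0.08 for Cyp3a13 (permutation p = 0.665), 0.01 for Cyp3a41a (permutation p = 0.938), -0.14 for Cyp3a44 (permutation p = 0.437) and 0.06 for Cyp3a59 (permutation p = 0.770). Spearman's rho was between -0.28 and -0.02. Without IL-4457 and IL-2126, the lines farthest from the median of Nr1i2, r was between -0.11 and 0.04. These values do not show that the members and Nr1i2 are unrelated. Within lines r with Nr1i2 was -0.34 for Cyp3a11 and 0.39 for Cyp3a44 (limma, adjusted p = 0.346 and 0.246).

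**Figure D5:**
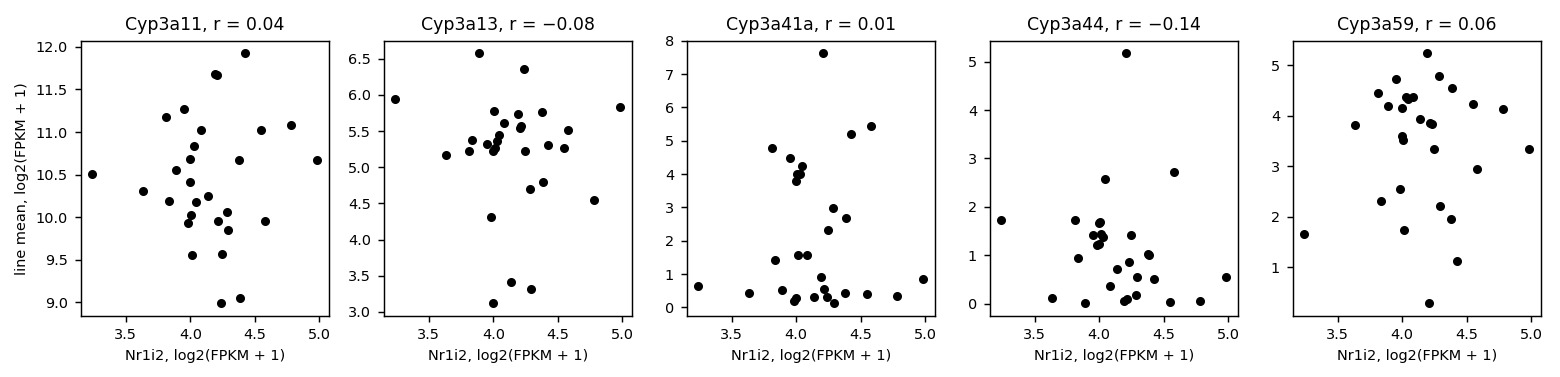
Line means of log2(FPKM + 1) of 5 members (y axis, each panel with its own scale) against those of Nr1i2 (x axis) in 29 lines. Pearson's r is between -0.14 (Cyp3a44) and 0.06 (Cyp3a59), and no member passed the test.

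Other genes of the pathways of Cyp3a were read against Cyp3a11 and Cyp3a41a by lists. With Cyp3a11 as the predictor 0.00886% of genes were called positive and 0% negative, and with Cyp3a41a 0% in either direction, and no gene of any list passed for either. At an unadjusted p under 0.05 limma gave 1777 genes for Cyp3a11 and 607 for Cyp3a41a. Among the receptors and partners (10 genes tested), r with Cyp3a11 was highest in size for Nr3c1, the glucocorticoid receptor, at 0.40, followed by Rxra at -0.21 and Cebpa at -0.19. For Cyp3a41a it was Nr1h4, the bile acid receptor, at -0.39, then Hnf4a at 0.33 and Cebpa at -0.30. Of 5 genes of electron supply and haem, Pgrmc1, a haem-binding partner of P450 enzymes, had r of 0.57 with Cyp3a11 (limma, adjusted p = 0.0969), Por had -0.24 and Cyb5 0.20, and Alas1, the first enzyme of haem synthesis, had 0.43 with Cyp3a41a, where Por had 0.21 and Cyb5 -0.03.

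Known targets of PXR and CAR outside the family (18 tested) had a median r of 0.21 with Cyp3a11, beside a median of 0.08 over all genes, and of 0.14 with Cyp3a41a, beside -0.04. The glutathione transferase Gstm1 had 0.47, the carboxylesterase Ces2a 0.38 and Ugt1a1, which conjugates bilirubin, 0.32 with Cyp3a11. The export pump Abcc2 had 0.39 and the P450 genes Cyp2c54 and Cyp2c50 0.27 and 0.22 with Cyp3a41a. None of the 18 was called as related to Nr1i2 either.

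Female-biased genes (10 tested) had a median r of 0.11 with Cyp3a41a across lines. The part of IL-2680 replicate 1 and IL-785 replicate 3 in the list values with Cyp3a41a was not tested. The steroid hydroxylase Cyp17a1 had 0.38 and Cyp2b9 0.31, while with Cyp3a11 Sult2a1 had -0.38, Cyp2b9 0.24 and Cyp17a1 -0.23. Male-biased genes (11 tested) had a median of -0.18 with Cyp3a41a, with Cyp4a12b at -0.43, the complement component C6 at -0.34 and Cyp4a12a at -0.22. With Cyp3a11 their median was 0.14, with Gstp1 at 0.44, Slco1a1 at 0.39 and Mup20 at 0.28. In the growth hormone pathway (9 tested) Igfals had -0.48, Jak2 0.46 and Stat5b 0.34 with Cyp3a11, and Bcl6 -0.18, Igfals -0.11 and Igf1 -0.08 with Cyp3a41a. Of 46 genes outside the family that start within 1 Mb of the cluster, 23 were expressed enough to be tested. Cdk8 had 0.50, Arpc1b -0.37 and AC113316.1 -0.34 with Cyp3a11, and Zfp655 -0.46, Gtf3a 0.36 and Cpsf4 -0.35 with Cyp3a41a. Read sharing with close paralogs makes Cyp4a12a and Cyp4a12b uncertain.

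The genes outside the family most like each member were taken by the highest Pearson's r over the 29 line means. For Cyp3a11 these were Fam82b (0.74, the 1 gene called, limma, adjusted p = 0.0424), Rnf111 (0.70) and Strbp (0.69). With log2 CPM, without a filter on low FPKM or without IL-1052 and IL-2750 0 genes were called for Cyp3a11, and with TPM 238 positive and 4 negative. For Cyp3a44 they included Gm8566 (0.72, called, limma, adjusted p = 0.0321) and Ntrk2 (0.68), the last highest in IL-2680 replicate 1 at 10.9 FPKM. Gm8566 had a median of 0 FPKM and was highest, at 102 FPKM, in IL-219 replicate 1, of the line with the highest mean of Cyp3a44. For Cyp3a41a they were Spp2 (0.67), Glt25d2 (0.65) and Ugt1a6b (0.63), for Cyp3a13 Gm4963 (0.62), Zscan21 (0.55) and Sult1a1 (0.54), and for Cyp3a59 they included 2810006K23Rik (0.59) and Mettl15 (0.57). None of these 8 was called. None are given for Cyp3a16 and Cyp3a41b, which few lines or mice carried.

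Body weight and age were given in the labels, and 5 relations were computed for each. No member and no other gene was called (0% of 11284 genes for each, limma), and at an unadjusted p under 0.05 there were 906 genes for weight and 659 for age. Cyp3a11 was lower in lines with older mice, with r of -0.45 (permutation p = 0.0156) and rho of -0.52 (permutation p = 0.00396), but with an adjusted p of 0.843 over all genes. Without IL-2680 and IL-2126, the lines farthest from the median age, r was -0.51. Cyp3a41a had r of -0.35 with weight (permutation p = 0.0602) and rho of -0.38 (permutation p = 0.0443), with an adjusted p of 0.619. The other members had r between -0.31 and 0.05 with either measure.

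Isoforms gave no further comparison. Each member, and Nr1i2, had 1 annotated isoform in the files, so that its percentage was 100 or, in some mice at or near 0, 0. Cyp3a25 and Cyp3a57 had 4 and 2 isoforms.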

How the data were processed

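The authors aligned stranded paired-end poly(A) reads of liver with Bowtie 2 to mm9 transcripts and quantified genes and isoforms with RSEM 1.2.18, which shares out fragments that match several genes. The deposited expected counts are not normalized. The deposited FPKM and TPM are RSEM's values corrected for effective length and depth, and the deposited isoform values are the percent of a gene's expression. Group labels give only the line, and no batch is named. The members and lists were chosen with earlier results of these data known.

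Differences among lines were tested with edgeR 4.0.16 (counts rounded to whole numbers, quasi-likelihood F test after TMM scaling and the filterByExpr defaults) on the 47 mice of 21 lines, with DESeq2 1.42.0 as an alternative. Relations across line means of log2(FPKM + 1) were tested with limma 3.58.1 over all genes with a highest FPKM of at least 2, with Benjamini-Hochberg adjustment and a threshold of 0.05, and with 100000 permutations for each pair. Intraclass correlations used van der Waerden scores of FPKM rounded to the maximum divided by 200, at least 0.5. The edgeR and limma steps were tested on simulated data. Named genes were all members, Nr1i2, the 3 genes most like each member, and of each list the 3 with the largest r to Cyp3a11 and to Cyp3a41a, and genes named for the mice that stood apart or the levels of whole lists were chosen after their values were seen. Some genes that this rule names are not reported here. Counting error is small at 20.5 to 33.95 M fragments, except near 0. Reads of all lines were aligned to the same mm9 transcripts, and the part of sequence differences between lines in the estimates was not tested. RefSeq promoters matched all 7 members, and mm9 positions come from the GENCODE annotation of that build, which is older than the annotation the authors used.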

Additional observations from a re-analysis of the deposited data

Results flagged for a closer look

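Xist, the RNA of X inactivation, lies outside the measurements described and had 39.5 FPKM in IL-785 replicate 3, against at most 0.12 FPKM in the other 54 mice. The same mouse had the Y-linked genes Ddx3y, Eif2s3y, Kdm5d and Uty at 12.6, 18.9, 1.91 and 3.51 FPKM, within the range of the other mice, and Cyp3a41a at 334 FPKM and Cyp3a44 at 29.4 FPKM. The cause was not tested.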

How the results depend on the processing

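Of the single values, 270 kept their direction and side of the threshold in alternatives that left out no single mouse or line, 5 newly passed, 7 no longer passed and 34 changed sign, mostly correlations near 0. All 7 members were called among lines in every edgeR setting but one, and 5 with DESeq2, which did not call Cyp3a41b and gave no value for Cyp3a16. Only 2 (Cyp3a11 and Cyp3a13) were left to test with at least 10 counts in every mouse, which also required expression in every line. The pair Cyp3a41a and Cyp3a44 gave 0 called pairs with log2(FPKM + 0.1), TPM, log2 CPM with TMM, without IL-1052 and IL-2750 and, chosen after seeing the data, without IL-2680 replicate 1 and IL-785 replicate 3 (r of 0.61, 0.69, 0.58, 0.71 and 0.66, limma, adjusted p = 0.283, 0.0540, 0.288, 0.0539 and 0.235). Within lines 3 pairs were called without these 2 mice and 0 without the 2 lines as well, and the cause was not tested. Leaving out each mouse or line gave 0 to 1 pairs and r of 0.56 to 0.80, and the pair no longer passed in 12 of 84 fits, those without line IL-219, IL-2680, IL-3348, IL-3912, IL-785, IL-2011, IL-3438 or IL-670 and those without IL-2680 replicate 1, IL-2156 replicate 1, IL-1052 replicate 1 or IL-785 replicate 3.

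With only the 21 lines of at least 2 mice, r changed sign to -0.0077 for Cyp3a44 with age, -0.077 for Cyp3a11 with Nr1i2, 0.014 for Cyp3a59 with Cyp3a11, 0.033 for Cyp3a59 with Cyp3a13 and 0.11 for Cyp3a13 with weight. Weighted by mice it was -0.0036 for Cyp3a11 with Nr1i2 and 0.015 for Cyp3a59 with Cyp3a13. With log2 CPM it was -0.029 for Cyp3a44 with age, -0.050 for Cyp3a44 with Cyp3a13, -0.089 for Cyp3a11 with Nr1i2 and 0.0081 for Cyp3a13 with weight. With log2(FPKM + 0.1) it was -0.00071 for Cyp3a41a with Nr1i2, -0.0058 for Cyp3a44 with age and -0.037 for Cyp3a44 with Cyp3a13. Without the 2 mice it was -0.075 for Cyp3a41a with Nr1i2 and -0.17 for Cyp3a44 with age, and without the 2 lines -0.0016 for Cyp3a41a with Nr1i2 and 0.011 for Cyp3a59 with Cyp3a13. Within lines r with Nr1i2 was -0.19 for Cyp3a59, -0.34 for Cyp3a11, 0.056 for Cyp3a13 and 0.39 for Cyp3a44. Within lines Cyp3a59 with Cyp3a11 had 0.26, also 0.26 without the 2 mice, 0.33 without the 2 lines and 0.32 without both. Cyp3a44 with Cyp3a11 had -0.15 without the 2 mice and -0.077 without both, Cyp3a59 with Cyp3a41a had 0.090 without the 2 lines and 0.11 without both, and Cyp3a59 with Cyp3a44 had 0.038 without the 2 lines. The intraclass correlation on unranked FPKM was -0.068 for Cyp3a41a and -0.083 for Cyp3a41b, and on unranked log2 values -0.12 for Cyp3a41b. The cause of these changes was not tested.

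Leaving out each mouse or line gave intraclass correlations of -0.023 to 0.45 for Cyp3a41b and r with Nr1i2 of -0.016 to 0.10 for Cyp3a11, -0.18 to 0.012 for Cyp3a13, -0.084 to 0.17 for Cyp3a41a, -0.25 to 0.044 for Cyp3a44 and -0.11 to 0.12 for Cyp3a59. It gave -0.25 to 0.14 for Cyp3a44 with Cyp3a11, -0.17 to 0.11 for Cyp3a59 with Cyp3a11, -0.0086 to 0.13 for Cyp3a44 with Cyp3a13, -0.10 to 0.051 for Cyp3a59 with Cyp3a13 and -0.23 to 0.10 for Cyp3a59 with Cyp3a41a. With weight it gave -0.11 to 0.14 for Cyp3a13 and -0.18 to 0.050 for Cyp3a59, and with age -0.14 to 0.068 for Cyp3a13 and -0.11 to 0.11 for Cyp3a44.

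The number of genes related to Nr1i2 (289 positive and 5 negative) was 1391 and 15 with TPM, 17 and 12 with log2 CPM, 158 and 3 without a filter on low FPKM and 135 and 3 without the 2 lines. For Cyp3a11 (1 and 0) it was 238 and 4 with TPM and 0 with log2 CPM, without a filter or without the 2 lines. For Cyp3a41a (0) it was 12 and 9 in the 21 lines, 6 and 11 weighted by mice and 1 and 0 with log2 CPM. For Cyp3a44 (3 and 0) it was 92 and 5 without a filter, 6 and 2 in the 21 lines, 7 and 2 weighted by mice and 0 with log2(FPKM + 0.1), TPM, log2 CPM or without the 2 lines. For Cyp3a13 (0) it was 0 and 1 without a filter, and for Cyp3a59 (0) 0 and 1 in the 21 lines. The planned isoform alternatives were not run, since each member has 1 isoform. No paired analysis was possible because replicate numbers only name the mice of a line. Depth limits Cyp3a16, Cyp3a41b and Cyp3a44 near 0, where 3 fragments stand for about 0.066, 0.053 and 0.056 FPKM.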
